A study of Mus musculus with 40 samples.

Results

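Expression of 8 genes of cholesterol synthesis and its control by sterol regulatory element binding protein 2 (SREBP2) was described in mouse brown adipose tissue. The genes were Hmgcs1, Idi1, Fdps, Sqle, Lss, Cyp51, Insig1 and Srebf2, chosen by name and found through their Ensembl identifiers among the 52636 genes of the deposited count table. All 8 had enough counts to be tested, among 17079 genes. The data came from 40 male C57BL/6 mice in 8 groups of 5, with mice 1 to 5 in each control group and 6 to 10 in each group given blocking antibodies. Antibody was injected once into the peritoneum. For control mice this was an anti-ragweed isotype antibody at 40 mg/kg, and for Jag antibody mice a pair of antibodies, at 20 mg/kg each, that block the Notch ligands Jag1 and Jag2. Tissue was taken at 15 h, 5 d or 7 d. A further control group and a further Jag antibody group, collected at 7 d, were also injected daily from day 2 with thyroid hormone, as T4 at 1 ug/g and T3 at 0.05 ug/g of body weight. The age was 10 to 12 weeks in the design text and 10 to 14 weeks in the treatment protocol. The antibodies and the hormone reached the whole animal, so the groups do not isolate an action on brown fat itself. The labels give numbered samples without describing housing or collection, so the p-values measure the spread between these samples only.

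Cholesterol is built from acetyl-CoA through mevalonate, isoprenoid units, squalene and lanosterol, and SREBP2 is the main transcription factor of the genes along this route. When sterols are plentiful, INSIG proteins hold the SREBP precursor and its escort SCAP in the endoplasmic reticulum. When sterols fall, the precursor moves to the Golgi, is cut by proteases there, and its released part enters the nucleus and binds sterol regulatory elements, often beside NF-Y and Sp1 sites. Brown fat burns lipid for heat, and its adipocytes also make and store lipid.

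Promoter sequences are shown for Hmgcs1, Cyp51, Insig1 and Srebf2. Hmgcs1 was higher in Jag antibody than in control mice at 15 h. With the hormone Cyp51 was called lower in control mice only, and Insig1 under both antibodies. Srebf2 codes for the factor itself and passed no test. The sequences are from RefSeq on GRCm38.p6, written 5′ to 3′ on the strand of the gene. Each begins 250 bases before the RefSeq start and ends before the first base of the gene in either RefSeq or GENCODE. Capitals mark matches to TCACNCCAC (a sterol regulatory element), CCAAT (the NF-Y box) or GGGCGG (the GC box bound by Sp1) on either strand. The Hmgcs1 sequence lies at chr13:119690101-119690350 on the plus strand, that of Cyp51 at chr5:4104747-4104947 on the minus strand, that of Insig1 at chr5:28071162-28071362 on the plus strand, and that of Srebf2 at chr15:82147019-82147180 on the plus strand.
Hmgcs1: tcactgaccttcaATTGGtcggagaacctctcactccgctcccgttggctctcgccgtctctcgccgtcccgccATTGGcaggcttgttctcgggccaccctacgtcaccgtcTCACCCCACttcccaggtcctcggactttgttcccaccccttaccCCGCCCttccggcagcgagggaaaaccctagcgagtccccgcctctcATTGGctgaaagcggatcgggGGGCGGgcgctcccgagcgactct
Cyp51: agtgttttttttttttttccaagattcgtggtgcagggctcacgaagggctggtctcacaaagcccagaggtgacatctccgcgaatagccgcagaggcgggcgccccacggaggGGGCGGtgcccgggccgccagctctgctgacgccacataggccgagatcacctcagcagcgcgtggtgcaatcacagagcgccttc
Insig1: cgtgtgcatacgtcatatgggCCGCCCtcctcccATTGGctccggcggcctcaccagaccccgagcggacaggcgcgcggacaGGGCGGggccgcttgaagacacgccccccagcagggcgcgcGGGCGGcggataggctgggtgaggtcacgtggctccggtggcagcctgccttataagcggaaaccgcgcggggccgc
Srebf2: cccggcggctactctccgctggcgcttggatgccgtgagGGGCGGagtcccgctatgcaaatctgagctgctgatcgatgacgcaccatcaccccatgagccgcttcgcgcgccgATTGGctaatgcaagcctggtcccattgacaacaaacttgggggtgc
The table held 6 of the 8 genes; Sqle and Fdps were not matched. In the 250 bases before the RefSeq start, TCACNCCAC matched in 1 of the 6, Hmgcs1, as TCACCCCAC at positions -137 to -129 from the start. Of 32841 promoters of the same length, 1.05% held that motif. The CCAAT box was present in 6 of 6 against 33.9% of all promoters, and the GC box in 6 of 6 against 32.8%. These counts cover the full 250 bases, some of which lie after the GENCODE start. The only CCAAT match of Cyp51, at -29 to -25, lies there, beyond its printed sequence. So do all matches of Idi1, at -69 to -10. None of the motifs overlapped another in the printed windows. A match describes the letters only, and other forms of the sterol element were not searched.

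The libraries held 12217623 to 36511893 counts. All 10 brown adipocyte markers checked, Ucp1 and Cidea among them, were detected in every library, with a summed level of 2276 to 33027 CPM. Ucp1 and Cidea had the highest medians of the 10, 4716 and 2326 CPM. The sum thus weighs them most and does not measure the number of brown adipocytes. CPM are counts put on a common scale by dividing by the library total multiplied by its TMM scaling factor. That factor ran from 0.647 in control mouse 4 at 7 d to 1.28 in control mouse 2 at 15 h. The scaled libraries therefore do not share the same total. Skeletal muscle RNA varied widely. Its 8 markers summed to 1018 to 175926 CPM in control mice at 5 d and to 0.878 to 43.9 CPM in Jag antibody mice at 5 d, and Ckm, Myh4, Myh1 and Tnnt3 had 0 counts in at least 1 library. Control mice 2 and 3 at 15 h stood apart with a myeloid score, the mean log2 CPM of 10 leukocyte genes, of 8.61 and 6.67. The other 3 control mice of that time had 2.55 to 4.25.

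Per kilobase of exon, Insig1 and Hmgcs1 were the most abundant of the 8 genes, with means over the 40 libraries of 52.8 and 49.5 CPM per kb. Cyp51 followed at 8.10, Srebf2 at 4.35, Lss at 3.07 and Sqle at 2.49 CPM per kb. Idi1 and Fdps were near the limit of detection, at 0.160 and 0.150 CPM per kb. A library held 0 to 30 Idi1 counts and 1 to 49 Fdps counts. Of the 50-base words of the first annotated Fdps transcript, 82.0% also occur in other genes, chiefly Gm43738, which overlaps Fdps on the same strand, and the processed pseudogenes Gm3571 and Gm5873. The share was 30.5% for Idi1, 14.5% for Hmgcs1 and at most 4.35% for the other 5 genes. Gm43738 had 0 counts in every library and Gm3571 had 13 to 169. How reads that fit several genes were counted is not given in the sources used here, so the Fdps and Idi1 values are uncertain.

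The 8 genes were compared between groups in 10 contrasts, by edgeR's quasi-likelihood test with adjustment over the 17079 genes. Called means here that the adjusted p was under 0.05. With the antibodies 1 of the 8 was higher at 15 h, Hmgcs1, where 1.14% of all genes were called in either direction and 0.234% higher. The other 7 had estimates below 0 that were not called, and the median of the 8 was -0.37 against -0.04 for all genes. At 7 d 2 of 8 were lower, Sqle and Cyp51, where 2.5% of all genes were called and 1.29% lower. With thyroid hormone 4 of 8 were lower in control mice, Hmgcs1, Fdps, Cyp51 and Insig1, where 43.2% of all genes were called and 22.9% lower. In Jag antibody mice 2 of 8 were lower, Hmgcs1 and Insig1, where 9.5% of all genes were called and 5.21% lower. Over time in control mice, Lss rose from 15 h to 5 d, where 36.4% of all genes were called and 16.2% higher. In the same mice Sqle, Cyp51 and Insig1 rose from 5 d to 7 d, where 9.13% of all genes were called and 4.71% higher. The count of 4 of 8 with hormone in control mice was close to the share among all genes.

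In 4 contrasts edgeR called none of the 8. These were the antibodies at 5 d, with 8.02% of all genes called, the antibodies at 7 d with hormone, with 1.14%, and Jag antibody mice from 15 h to 5 d, with 14.5%, and from 5 d to 7 d, with 3.29%. At an unadjusted p under 0.05 the counts in these contrasts were 4, 3, 2 and 6 of 8. DESeq2 called 1, 0, 1 and 2 of 8 in the same order, and limma voom called 0 in each. The plot of fold changes shows each estimate with its standard error.

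**Figure D1:**
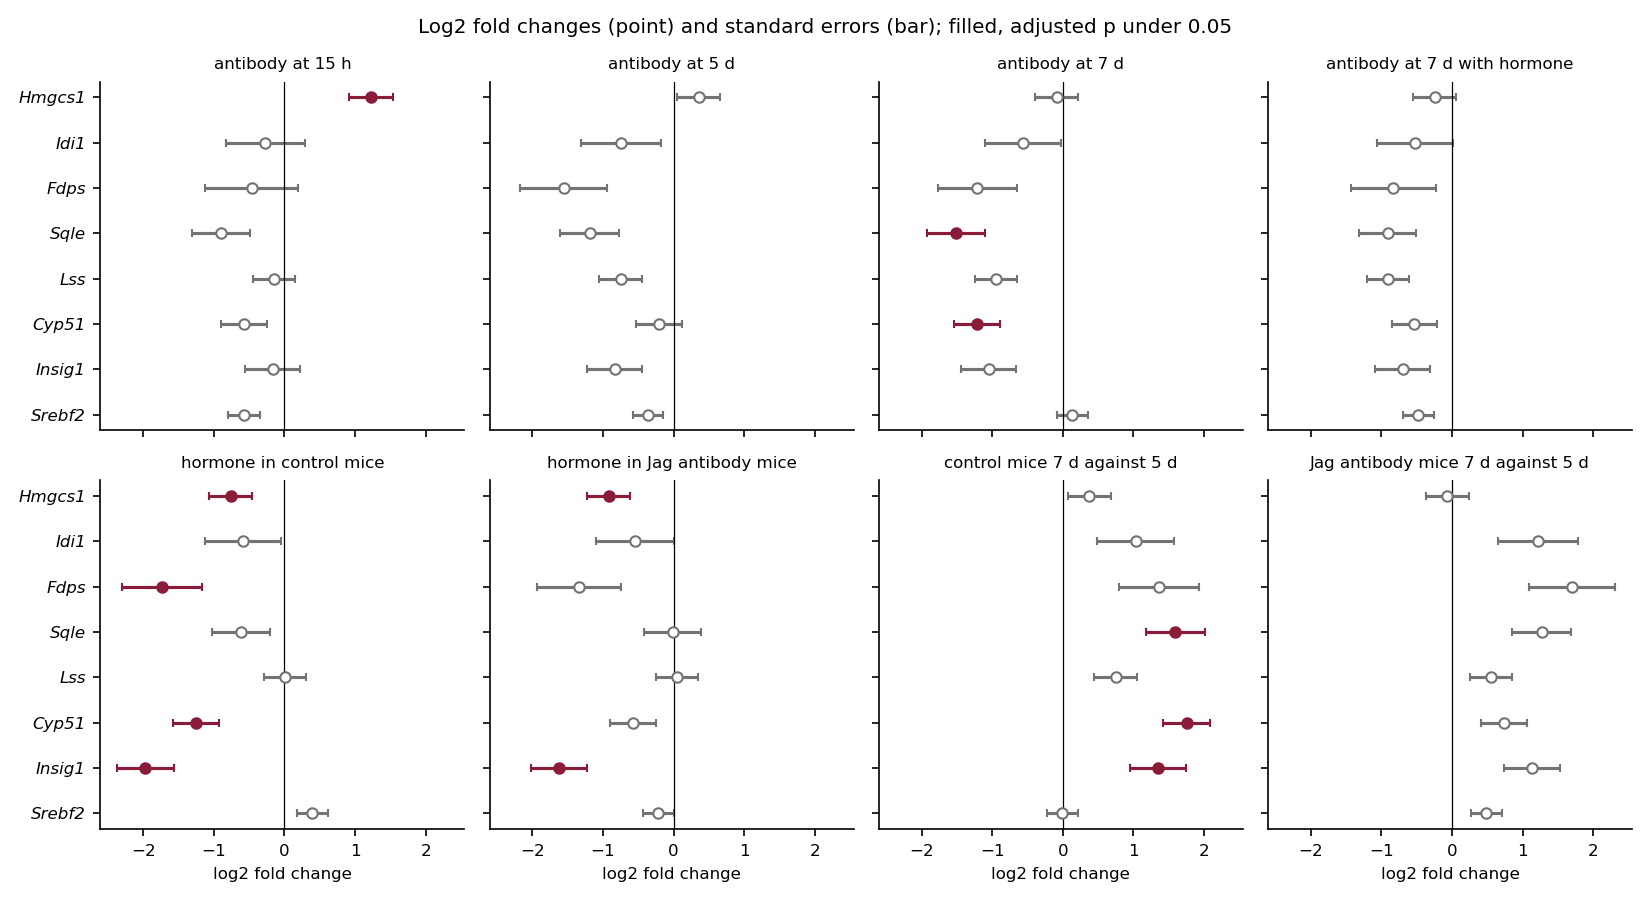
Log2 fold changes of the 8 genes in 8 contrasts, with points for the edgeR estimate, bars for its standard error and filled points for an adjusted p under 0.05. Hmgcs1 is the only filled point at 15 h (1.22), Sqle and Cyp51 are filled at 7 d (-1.51 and -1.22), and the filled points with hormone all lie below 0.

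Hmgcs1 codes for the cytosolic HMG-CoA synthase, an early enzyme of the mevalonate pathway (ENSMUSG00000093930, chr13:119690379-119708260, plus strand, GRCm38). In control mice at 15 h its level was 7.61, 7.23, 7.14, 7.91 and 7.73 log2 CPM in mice 1 to 5. Jag antibody mice at 15 h had 8.30, 8.79, 8.99, 8.36 and 9.24 log2 CPM, in mice 6 to 10. All 5 Jag antibody mice were above all 5 control mice, as for 2.48% of all tested genes in either direction. The log2 fold change was 1.22 (SE 0.31, n = 5 per group, edgeR adjusted p = 0.0429), a 2.34-fold higher level.

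The antibody call for Hmgcs1 at 15 h held in 3 of the 10 single omissions, while its log2 fold change stayed at 1.08 to 1.36. Among all genes 194 were called as reported and 6 to 25 without any single Jag antibody mouse. Without control mouse 2 or 3 the numbers were 6 and 9. The adjusted p of Hmgcs1 was 0.0639 to 0.108 without any single Jag antibody mouse, 0.285 without control mouse 2 and 0.140 without control mouse 3, the libraries with the high myeloid scores. Without mice 2 and 3 together, an alternative chosen after seeing the data, the log2 fold change was 1.02 and the adjusted p 0.644. Those control mice had the lowest Hmgcs1 of their group, and the remaining 3 control mice were still all below the Jag antibody mice. The summed brown adipocyte markers were 2276 to 10900 CPM in the control mice of that time (median 8433) and 10099 to 15227 CPM in the Jag antibody mice (median 11395), and their part in the result was not tested. In bulk tissue fewer cells of a type and less RNA per cell cannot be told apart.

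At the later times Hmgcs1 overlapped between the antibody groups. It was 8.20, 7.83, 7.12, 7.61 and 6.68 log2 CPM in control mice at 5 d and 7.75, 7.39, 8.45, 7.85 and 8.07 log2 CPM in Jag antibody mice at 5 d. The log2 fold change there was 0.36 (SE 0.30, adjusted p = 0.510), and at 7 d it was -0.09 with a 95% interval of -0.68 to 0.51. The Jag antibody group at 15 h was thus the highest of the 8 groups for Hmgcs1. From 15 h to 5 d the Jag antibody mice differed by -0.84 (SE 0.30), with an adjusted p of 0.0572 that fell to 0.0277 without mouse 8 at 5 d and to 0.0495 without mouse 6 at 15 h. The difference between the antibody changes at 5 d and at 15 h was -0.87 (SE 0.43, adjusted p = 0.343), so it did not pass the test.

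With thyroid hormone Hmgcs1 was lower under both antibodies. At 7 d it was 8.33, 8.57, 7.34, 7.20 and 7.88 log2 CPM in control mice, and 7.24, 7.77, 6.93, 6.80 and 7.04 log2 CPM in control mice given hormone. The ranges overlapped, and the log2 fold change was -0.76 (SE 0.30, adjusted p = 0.0408). Jag antibody mice at 7 d had 6.57, 7.91, 8.80, 7.65 and 7.57 log2 CPM without hormone, against 7.09, 6.72, 6.74, 7.18 and 6.99 log2 CPM with it, and the estimate was -0.92 (SE 0.30, adjusted p = 0.0495). The Jag antibody group without hormone held both the lowest and the highest of these 10 values.

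Both hormone calls for Hmgcs1 were near the threshold. In control mice the adjusted p was 0.0512 to 0.140 without hormone mouse 1, 3, 4 or 5 or without mouse 1 or 2 of the untreated group. In Jag antibody mice 9 of the 10 single omissions ended the call, all but that of mouse 6 without hormone, and the estimate was -0.54 without mouse 8 of the group without hormone.

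Idi1 codes for isopentenyl-diphosphate isomerase, which interconverts the isoprenoid building blocks (ENSMUSG00000058258, chr13:8885501-8892451, plus strand). Its group means ran from -1.72 log2 CPM in Jag antibody mice at 5 d to -0.02 log2 CPM in control mice at 7 d. It was called in none of the 10 contrasts, and 2 libraries had 0 counts, control mouse 5 and Jag antibody mouse 8 at 5 d. Its estimate was below 0 in each of the 4 antibody contrasts, from -0.75 (SE 0.56) at 5 d to -0.27 (SE 0.56) at 15 h.

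Fdps codes for farnesyl diphosphate synthase, the enzyme at the branch between sterols and other isoprenoids (ENSMUSG00000059743, chr3:89093588-89101959, minus strand). In control mice at 7 d it stood at 1.44, 1.70, -0.26, 0.45 and 0.57 log2 CPM, and with hormone at -1.33, -0.49, -1.23, 0.23 and -0.93 log2 CPM. The means were 0.78 ± 0.79 (SD, n = 5) and -0.75 ± 0.64 (SD, n = 5), with ranges that overlapped. The hormone difference was -1.73 on the log2 scale (SE 0.57, edgeR adjusted p = 0.0136), 3.31-fold lower, and it was called without each single mouse. With hormone in Jag antibody mice the estimate was -1.34 (SE 0.60, adjusted p = 0.139). The antibody estimates ran from -1.56 (SE 0.61, adjusted p = 0.110) at 5 d to -0.47 (SE 0.65) at 15 h. The 5 d value passed at 0.0433 without control mouse 1. From 5 d to 7 d the difference in control mice was 1.36 (SE 0.56, adjusted p = 0.114), which passed at 0.0375 without control mouse 5 at 5 d. The low counts and the shared sequence given above apply to each Fdps value.

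Among the sterol enzymes, Sqle and Cyp51 were lower in Jag antibody than in control mice at 7 d, and Lss had an estimate below 0 that did not pass the test. Sqle codes for squalene epoxidase, which makes the substrate of lanosterol synthase (ENSMUSG00000022351, chr15:59315077-59331192, plus strand). At 7 d it was 5.23, 5.54, 4.10, 4.19 and 5.12 log2 CPM in control mice. It was 2.21, 3.88, 3.71, 3.97 and 2.64 log2 CPM in Jag antibody mice. All 5 Jag antibody mice were below all 5 control mice, as for 3.31% of all tested genes in either direction. Their log2 fold change was -1.51 (SE 0.41, edgeR adjusted p = 0.0415), a 2.86-fold lower level.

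The other antibody contrasts gave Sqle estimates below 0 that did not pass the test. At 5 d it was 2.82, 4.04, 3.97, 3.07 and 1.86 log2 CPM in control mice and 1.68, 2.54, 1.76, 1.78 and 2.79 log2 CPM in Jag antibody mice. Control mouse 5, which had the highest muscle score of the 40 libraries at 13.7, was within the Jag antibody range. The log2 fold change was -1.19 (SE 0.41, adjusted p = 0.0688), and the adjusted p was 0.0377 without control mouse 1. With the muscle score as a covariate the estimate was -1.83 (adjusted p = 0.0387), but that score did not overlap between these groups. It was 9.90 ± 3.31 (SD, n = 5) in control and -0.14 ± 1.95 (SD, n = 5) in Jag antibody mice (exact permutation p = 0.00794, adjusted 0.0433 over 60 such tests). Its part and that of the antibodies cannot be told apart at 5 d. Among all genes 89 were called with the covariate and 1369 without. The mitochondrial share was 13.8% in control and 18.0% in Jag antibody mice. At 15 h the Sqle difference was -0.90 (SE 0.41, adjusted p = 0.355), and at 7 d with hormone -0.91 (SE 0.41, adjusted p = 0.352). At 15 h control mice 2 and 3, the libraries with high myeloid scores, had the highest Sqle, at 4.76 and 4.20 log2 CPM.

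In control mice Sqle rose from 5 d to 7 d by 1.60 on the log2 scale (SE 0.41, adjusted p = 0.0154), 3.02-fold, and the 2 groups did not overlap, as for 4.41% of all genes. The adjusted p was 0.0664 without control mouse 2 at 7 d. The muscle markers also differed between these times, with a score of 9.90 ± 3.31 (SD, n = 5) at 5 d and 3.44 ± 5.47 (SD, n = 5) at 7 d, and with that score as a covariate the Sqle estimate was 1.22 (adjusted p = 0.0757). Beside the rises of Sqle, Cyp51 and Insig1 over this interval, the mitochondrial share of counts was 13.8% at 5 d and 20.0% at 7 d (exact permutation p = 0.00794, adjusted 0.0433 over 60 such tests). The summed brown adipocyte markers were 7578 to 19186 CPM at 5 d and 15071 to 33027 CPM at 7 d. The part of both in the rises was not tested. With hormone the Sqle difference in control mice was -0.61 (SE 0.41, adjusted p = 0.223), and in Jag antibody mice -0.01 with a 95% interval of -0.81 to 0.78.

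Cyp51 codes for lanosterol demethylase (ENSMUSG00000001467, chr5:4081145-4104746, minus strand). At 7 d it was 6.53, 7.08, 5.80, 5.65 and 6.50 log2 CPM in control mice, the highest of the 8 groups. It was 3.96, 5.89, 4.97, 5.81 and 4.34 log2 CPM in Jag antibody mice and 5.25, 5.56, 5.36, 4.67 and 4.69 log2 CPM in control mice given hormone. Jag antibody mice 7 and 9 reached the control range, whereas no control mouse given hormone did. The antibody log2 fold change was -1.22 (SE 0.33, adjusted p = 0.0380), 2.33-fold lower. The hormone log2 fold change in control mice was -1.26 (SE 0.33, adjusted p = 0.00244), 2.39-fold lower, with no overlap, as for 29.8% of all genes.

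In Jag antibody mice given hormone Cyp51 was 4.58, 3.86, 5.18, 4.94 and 4.13 log2 CPM. Against the Jag antibody mice without hormone this was a difference of -0.57 (SE 0.32, adjusted p = 0.251), and against control mice given hormone of -0.53 (SE 0.32, adjusted p = 0.557). The antibody by hormone interaction was 0.69 (SE 0.46, adjusted p = 0.501), so the antibody changes with and without hormone were not shown to differ. At 5 d Cyp51 was 4.56, 5.11, 5.09, 4.27 and 3.86 log2 CPM in control mice. The rise to 7 d was 1.75 (SE 0.33, adjusted p = 0.00207), 3.37-fold, with no overlap, as for 4.41% of all genes, and it was called without each single mouse and with the muscle covariate (1.49, adjusted p = 0.0161). The Jag antibody mice differed by 0.74 (SE 0.32, adjusted p = 0.205) over the same interval. The difference between these time changes was -1.01 (SE 0.46, unadjusted p = 0.0331, adjusted p = 0.250) and did not pass.

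The antibody calls at 7 d were close to the threshold for both enzymes. For Sqle the adjusted p was 0.0588 to 0.126 without Jag antibody mouse 6, 8 or 10 or control mouse 1, 2 or 5. For Cyp51 it was 0.0605 to 0.137 without Jag antibody mouse 6, 8 or 10 or control mouse 2 or 5. Jag antibody mouse 6, lowest of its group for both, had the highest muscle score of that group, 12.3. With the muscle score as a covariate both were called, Sqle at -1.50 (adjusted p = 0.0233) and Cyp51 at -1.20 (adjusted p = 0.0294). The summed brown adipocyte markers were 15071 to 33027 CPM in the control mice and 7079 to 22558 CPM in the Jag antibody mice of that time, and their part in the result was not tested.

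Lss codes for lanosterol synthase, which closes the rings of the sterol skeleton (ENSMUSG00000033105, chr10:76531588-76557138, plus strand). At 7 d it was 6.24, 6.16, 5.39, 5.19 and 5.95 log2 CPM in control mice and 3.71, 5.17, 5.03, 5.42 and 4.62 log2 CPM in Jag antibody mice, of which mouse 9 reached the control range. The group difference was -0.95 on the log2 scale (SE 0.30, adjusted p = 0.0771). The adjusted p was 0.0463 without Jag antibody mouse 9, 0.0456 without control mouse 3 and 0.0472 with the muscle covariate. At 5 d the antibody difference was -0.75 (SE 0.30, adjusted p = 0.115), and with the muscle covariate it was -1.32 and called (adjusted p = 0.0316). The muscle score did not overlap between the antibody groups at 5 d, as given for Sqle. At 7 d with hormone the Lss difference was -0.91 (SE 0.30, adjusted p = 0.143), and -0.98 with the covariate (adjusted p = 0.0467). Unlike Cyp51, Lss had an estimate near 0 for the hormone itself, 0.01 in control mice (95% interval -0.57 to 0.60) and 0.05 in Jag antibody mice (95% interval -0.53 to 0.63). With offsets for transcript length and GC content the value in control mice was -0.55 (adjusted p = 0.151).

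Lss was called in control mice from 15 h to 5 d. It was 4.88, 3.63, 4.02, 4.31 and 3.74 log2 CPM at 15 h and 5.03, 5.53, 5.28, 5.24 and 3.98 log2 CPM at 5 d. Mouse 5 at 5 d, the library richest in muscle RNA, lay within the 15 h range and the other 4 above it. The log2 fold change was 0.92 (SE 0.30, adjusted p = 0.0176), 1.89-fold, and without control mice 2 and 3 at 15 h it was 0.73 (adjusted p = 0.151). Beside this rise the mitochondrial share of counts was 23.5% at 15 h and 13.8% at 5 d (exact permutation p = 0.00794, adjusted 0.0433 over 60 such tests). The part of that share in the rise was not tested.

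Of the regulators, Insig1 varied by 2.60 log2 units between its lowest and highest group means and Srebf2 by 0.82. Insig1 codes for an endoplasmic reticulum protein that retains the SREBP precursor and is itself an SREBP target (ENSMUSG00000045294, chr5:28071363-28078662, plus strand). At 7 d it was 8.99, 9.54, 8.23, 7.79 and 8.61 log2 CPM in control mice. With hormone it was 7.28, 7.11, 6.42, 6.63 and 6.24 log2 CPM. All 5 hormone mice were below all 5 others, as for 29.8% of all genes in either direction, and the log2 fold change of -1.97 (SE 0.40, edgeR adjusted p = 0.000248) was a 3.92-fold lower level.

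In Jag antibody mice at 7 d Insig1 was 6.30, 8.36, 7.25, 8.27 and 7.48 log2 CPM without hormone. With hormone it was 6.29, 5.41, 5.93, 6.67 and 5.85 log2 CPM. Mouse 6 of the group without hormone, rich in muscle RNA, was the only mouse of that group within the hormone range. The hormone difference was -1.62 on the log2 scale (SE 0.40, adjusted p = 0.00833), 3.07-fold lower, and the antibody by hormone interaction was 0.35 with a 95% interval of -0.72 to 1.42. The Insig1 calls with hormone under both antibodies held without each single mouse and in the 9 processing alternatives.

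The antibodies themselves gave Insig1 differences of -0.17 (SE 0.39) at 15 h, -0.83 (SE 0.39) at 5 d, -1.05 (SE 0.39) at 7 d and -0.70 (SE 0.39) at 7 d with hormone, with adjusted p of 0.135 at the lowest. In control mice Insig1 was 7.86, 5.64, 6.34, 6.96 and 6.52 log2 CPM at 15 h and 7.22, 8.04, 8.07, 6.83 and 5.80 log2 CPM at 5 d. From 15 h to 5 d the difference was 0.56 (SE 0.39, adjusted p = 0.257), or 1.05 (adjusted p = 0.0347) without control mouse 1 at 15 h. From 5 d to 7 d Insig1 rose by 1.35 (SE 0.39, adjusted p = 0.0278), 2.55-fold. That adjusted p was 0.0526 to 0.142 without mouse 1 or 2 at 7 d or mouse 1, 4 or 5 at 5 d, and 0.133 with the muscle covariate.

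Srebf2, which codes for SREBP2 and holds the microRNA gene Mir33 (ENSMUSG00000022463, chr15:82147181-82205379, plus strand), was called in no contrast. Its group means lay between 4.54 log2 CPM in Jag antibody mice at 15 h and 5.35 log2 CPM in control mice given hormone. At 7 d it was 4.90, 5.18, 4.87, 4.63 and 5.18 log2 CPM in control mice and 4.46, 5.43, 5.41, 4.91 and 5.09 log2 CPM in Jag antibody mice, a difference of 0.13 with a 95% interval of -0.30 to 0.56. With hormone the control mice stood at 5.34, 5.08, 5.31, 5.68 and 5.34 log2 CPM. The hormone difference of 0.40 (SE 0.22, adjusted p = 0.145) became -0.09 with length and GC offsets. At 15 h the antibody difference was -0.57 (SE 0.22, adjusted p = 0.209), with the highest levels, 5.68 and 5.45 log2 CPM, in control mice 2 and 3. These counts measure the mRNA and give no measure of SREBP2 cleavage.

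**Figure D2:**
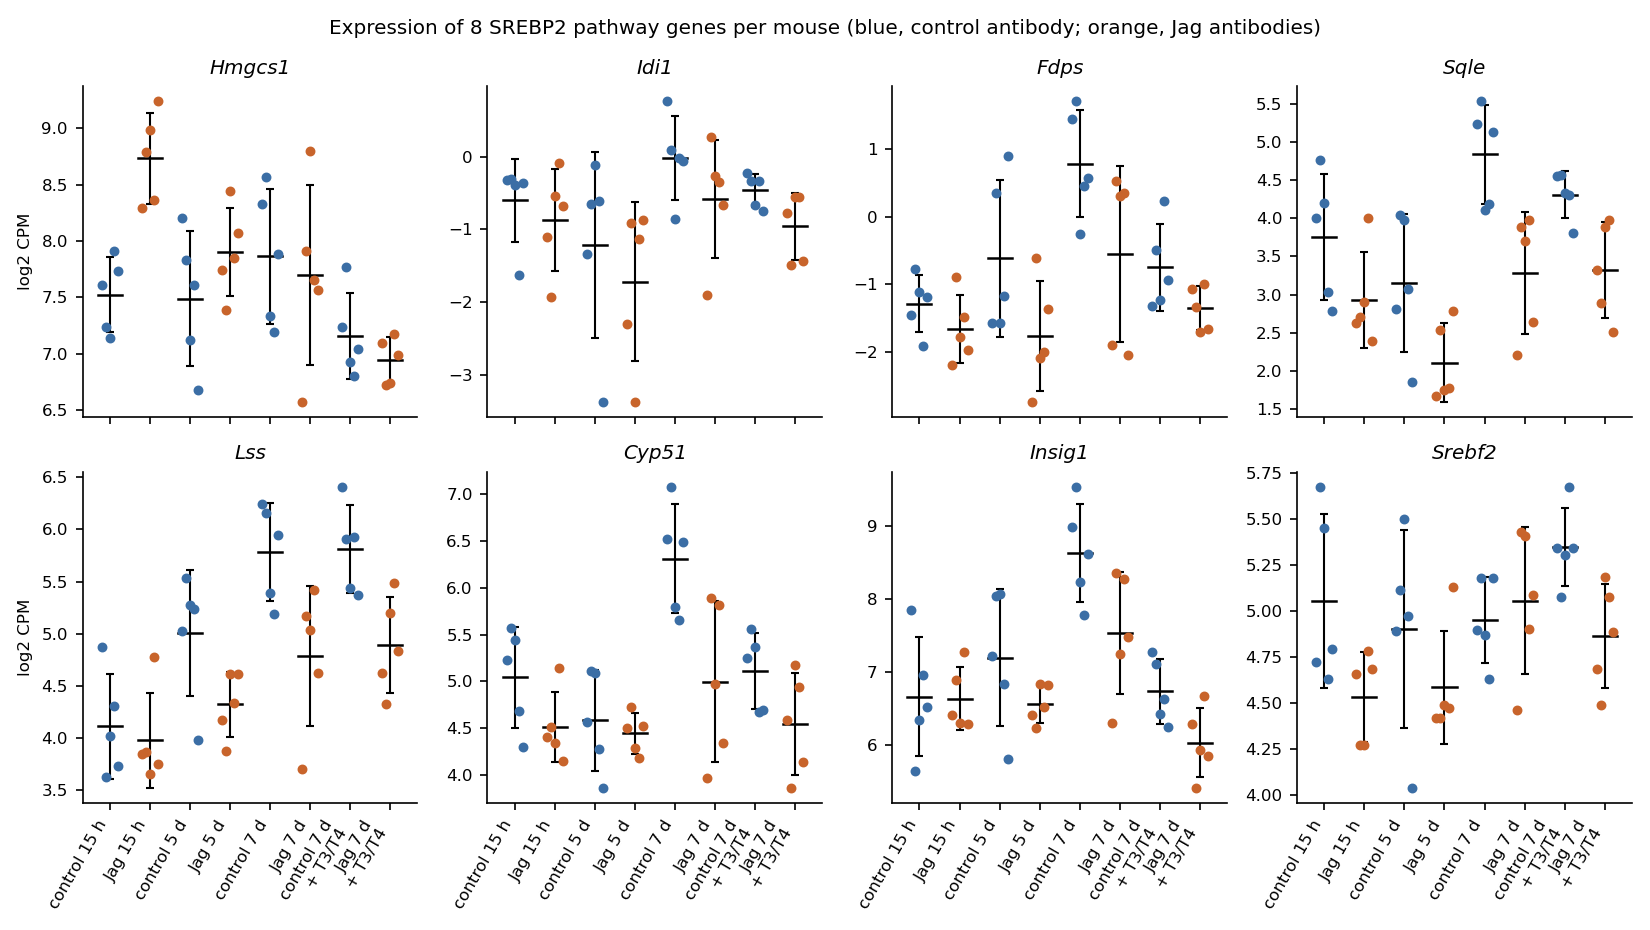
Log2 CPM of each gene in each of the 40 mice, with control antibody mice in blue and Jag antibody mice in orange; horizontal lines are group means and error bars are SD (n = 5), and each panel has its own vertical scale. Hmgcs1 is highest in Jag antibody mice at 15 h, while Idi1, Fdps, Sqle, Cyp51 and Insig1 have their highest mean in control mice at 7 d without hormone.

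Ordered by group mean, 5 of the 8 genes were highest in control mice at 7 d without hormone, and 4 were lowest in Jag antibody mice at 5 d (Idi1, Fdps, Sqle and Cyp51). The span from lowest to highest mean was 2.73 log2 units for Sqle, 2.54 for Fdps, 1.87 for Cyp51, 1.83 for Lss, 1.79 for Hmgcs1 and 1.70 for Idi1. Of 56 neighbouring pairs in these orders the ranges overlapped in 55, which the choice of neighbours by their means favours. No test is given for them. The pair that did not overlap was Cyp51 in control mice at 7 d with and without hormone. The control group at 7 d entered the antibody, hormone and time contrasts of that age, so those results share its 5 mice.

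The difference between antibody changes was tested in 3 interactions, with hormone against without at 7 d, 7 d against 5 d, and 5 d against 15 h. edgeR called none of the 8 genes in them, and 0, 1 and 0 of the 8 had an unadjusted p under 0.05. Among all genes 0.00586%, 1.29% and 0.0995% were called. DESeq2 and limma voom called 0 of 8 in each. For Srebf2 the interaction with hormone was -0.61 (SE 0.31, adjusted p = 0.418).

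Library properties moved with the hormone. In control mice, beside the 4 lower members, the slope of log2 CPM on log2 transcript length was 0.166 with hormone and -0.226 without, the mitochondrial share of counts was 12.8% and 20.0%, the myeloid score was 3.90 and 2.19, and the TMM scaling factor 1.10 and 0.799 (each exact permutation p = 0.00794, adjusted 0.0433 over 60 such tests). The summed brown adipocyte markers were 5867 to 9935 CPM with hormone and 15071 to 33027 CPM without, and the proliferation markers 60.2 to 139 CPM and 2.58 to 6.19 CPM. With length and GC offsets the same 4 genes were called, Insig1 at -1.77, Fdps at -1.88, Cyp51 at -1.32 and Hmgcs1 at -0.82. Under the Jag antibodies, where Insig1 and Hmgcs1 were lower with hormone, the length slope was 0.117 with it and -0.0601 without (exact permutation p = 0.00794, adjusted 0.0433). Their myeloid score was 3.88 and 2.48 (exact permutation p = 0.0159, adjusted 0.0733), and the brown adipocyte markers summed to 7799 to 10613 CPM and 7079 to 22558 CPM. The part of the cell markers and of the mitochondrial share in these differences was not tested.

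The other enzymes of the pathway were read from a list of 15. At 15 h edgeR, DESeq2 and limma voom each called 0 of them, 5 had an unadjusted edgeR p under 0.05, and the list's median log2 fold change was -0.30 against -0.04 for all genes. At 5 d 3 of 15 were called, all lower, and at 7 d again 3 of 15, all lower, with medians of -0.43 and -0.71 against 0.04 and 0.05 for all genes. Among all genes 8.02% and 2.5% were called at these times. The enzymes called were Pmvk, Mvd and Nsdhl at each time. At 5 d the part of the muscle score, as given for Sqle, and that of the antibodies cannot be told apart. Pmvk, which phosphorylates phosphomevalonate, differed by -1.59 (SE 0.34, adjusted p = 0.00965) at 7 d. Mvd, which makes isopentenyl diphosphate from the product of Pmvk, differed by -1.41 (SE 0.37, adjusted p = 0.0340), and Nsdhl, of the demethylation of sterols, by -1.40 (SE 0.30, adjusted p = 0.00965).

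With hormone in control mice 9 of the 15 were called, 8 lower and 1 higher, where 43.2% of all genes were called and 22.9% lower. The median was -0.93 against 0.04 for all genes. The smallest adjusted p among them belonged to Ebp (-1.08, SE 0.17), Tm7sf2 (-1.48, SE 0.27), Msmo1 (-1.45, SE 0.31) and Acat2 (-1.22, SE 0.27), and the gene called higher was Lbr. In Jag antibody mice 2 of 15 were called with hormone, Ebp at -0.64 (SE 0.17) and Msmo1 at -0.98 (SE 0.31), where 9.5% of all genes were called. From 5 d to 7 d in control mice 8 of 15 were called, all higher, where 9.13% of all genes were called and 4.71% higher. The median was 0.94 against 0.01, and Sc5d was among them at 1.80 (SE 0.33). In Jag antibody mice 4 of 15 were called over that interval, all higher, with Sc5d, Nsdhl and Msmo1 among them, where 3.29% of all genes were called.

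**Figure D3:**
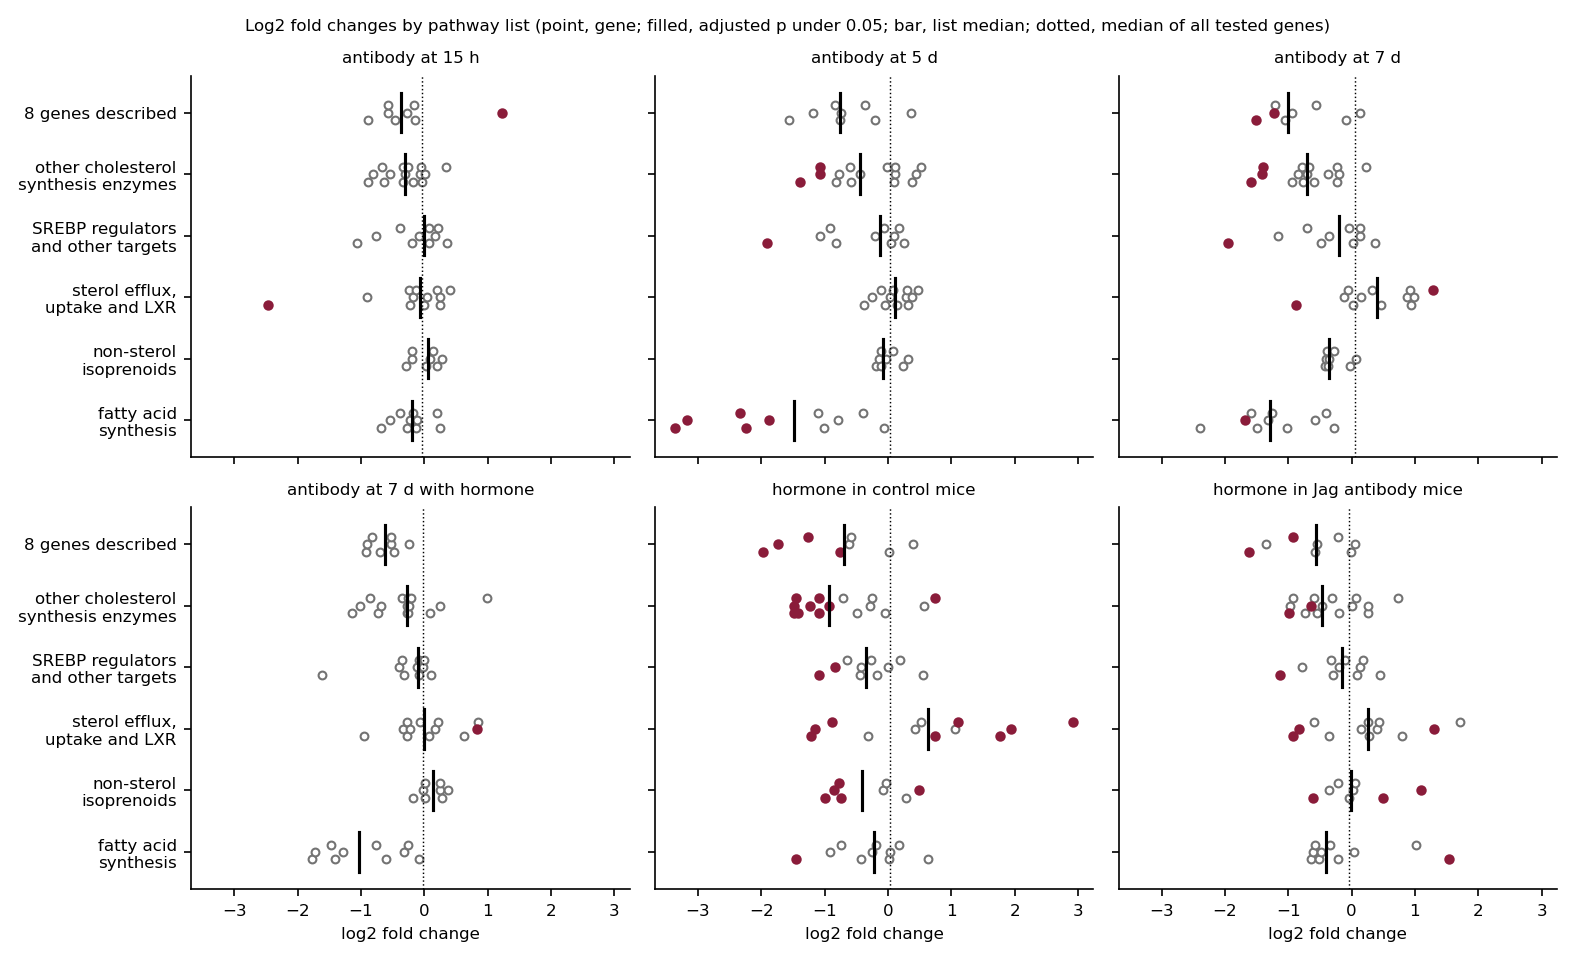
Log2 fold change of each gene of 6 lists in 6 contrasts, with filled points for an adjusted p under 0.05, a bar at the list median and a dotted line at the median of all tested genes. The 8 genes described have a median of -0.998 at 7 d under the antibodies and of -0.69 with hormone in control mice, and the sterol efflux list has a median of 0.63 in the latter contrast.

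Of 11 listed SREBP regulators and other SREBP2 targets, 10 were tested. With the antibodies 1 of 10 was called at 5 d and 1 at 7 d, where 8.02% and 2.5% of all genes were called. Both times it was Acss2, an acetyl-CoA synthetase, which was lower, with -1.96 (SE 0.49, adjusted p = 0.0254) at 7 d. The limit from the muscle score applies to its 5 d value too. Srebf1, which codes for the related factor SREBP1, fell with hormone, in control mice by 0.83 on the log2 scale (SE 0.32, adjusted p = 0.0332) and in Jag antibody mice by 1.12 (SE 0.32, adjusted p = 0.0224). With hormone 2 of the 10 were called in control mice, Aacs besides Srebf1, and 1 in Jag antibody mice. Among all genes 43.2% and 9.5% were called in these contrasts.

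Genes of sterol efflux, uptake and the liver X receptors (LXR) were called in both directions. At 7 d under the antibodies 2 of 12 were called, Mylip higher and Npc2 lower, where 2.5% of all genes were called. The median was 0.39 against -0.998 for the 8 genes. Mylip, a ubiquitin ligase and LXR target, differed by 1.29 (SE 0.22, adjusted p = 0.000738), and by 0.83 (SE 0.21, adjusted p = 0.0441) with hormone. With hormone in control mice 8 of 12 were called, 5 higher and 3 lower, where 43.2% of all genes were called, and the median was 0.63. Scarb1, a lipoprotein receptor, was 1.10 (SE 0.19) higher and the LXR gene Nr1h3 differed by -1.15 (SE 0.20). At 15 h, where 1.14% of all genes were called, 1 of 12 was called. This was Soat1, a cholesterol esterifying enzyme, at -2.46 (SE 0.59, adjusted p = 0.0399), a gene whose comparison includes the control mice with high myeloid scores.

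In the branch to other isoprenoids edgeR called 0 of 8 genes in each of the 4 antibody contrasts, with 1, 1, 4 and 0 at an unadjusted p under 0.05 at 15 h, 5 d, 7 d and 7 d with hormone. DESeq2 called 0, 1, 1 and 0 in the same order, and limma voom 0 in each. With hormone 5 of 8 were called in control mice, 4 lower and 1 higher, where 43.2% of all genes were called and 22.9% lower. In Jag antibody mice 3 of 8 were called with hormone, 2 higher and 1 lower, where 9.5% of all genes were called. Of 10 genes of fatty acid synthesis, 5 were called lower with the antibodies at 5 d, Fasn at -3.36 (SE 0.81, adjusted p = 0.0111) among them, and 1 at 7 d. Among all genes 8.02% and 2.5% were called at these times. The muscle score did not overlap between the antibody groups at 5 d, so its part and that of the antibodies cannot be told apart there. Fasn with hormone in control mice was 0.17 (SE 0.74).

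Within groups the 8 genes varied together to different degrees. With each gene centred on its group means, Pearson's r over the 40 libraries was 0.0858 to 0.896 for the 28 pairs, with a median of 0.492. Sqle and Cyp51 had the highest r, 0.896, followed by Lss and Insig1 at 0.879. Hmgcs1 had 0.302 with Cyp51, and over the uncentred values 0.114. Srebf2 had 0.708 with Sqle, 0.324 with Insig1 and 0.227 with Hmgcs1. The pairs share the library, its depth and its content of other tissue, and the low counts of Idi1 and Fdps limit their values.

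**Figure D4:**
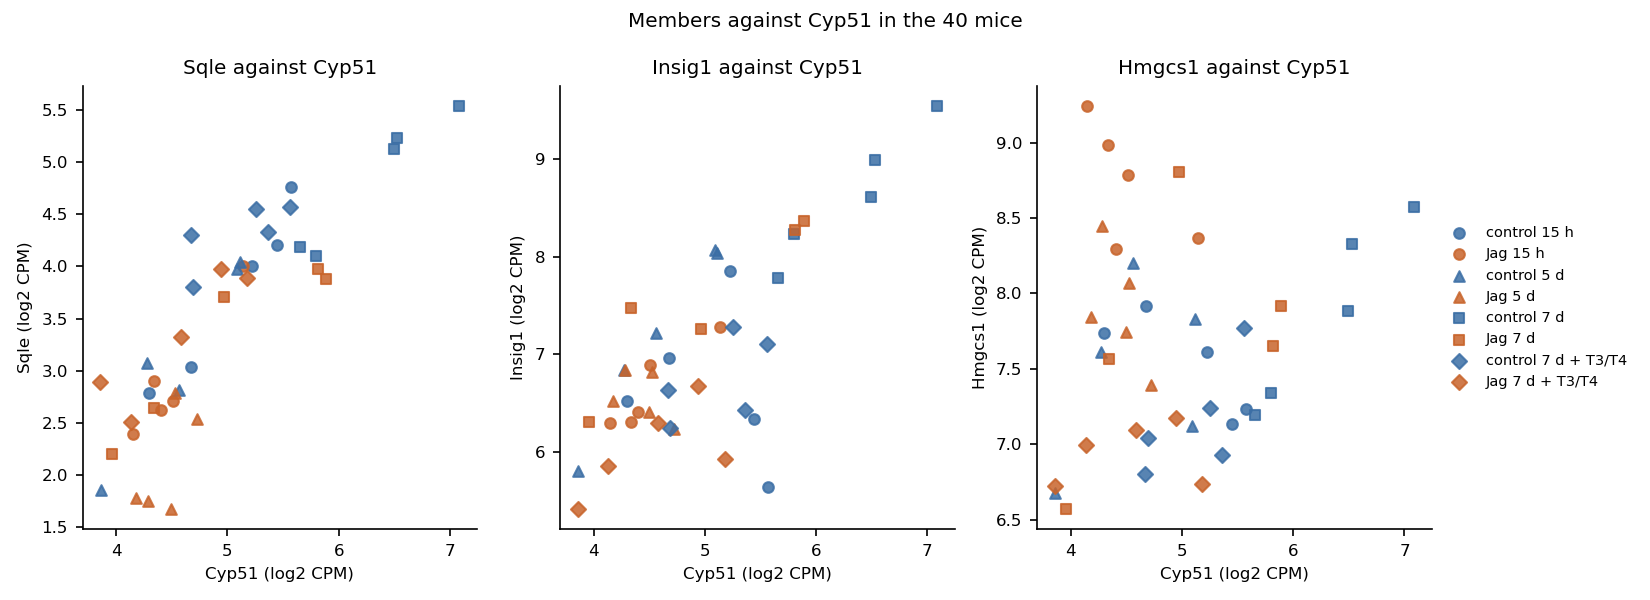
Log2 CPM of Sqle, Insig1 and Hmgcs1 against that of Cyp51 in the 40 mice, with color for the antibody and shape for the time and hormone. Sqle rises with Cyp51 (r within groups 0.896), whereas the Hmgcs1 points spread widely (0.302), with the Jag antibody mice at 15 h at the top left.

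Against the mean of the 8 genes, centred in the same way, the genes outside the lists with the highest r over the 40 libraries were Pfkp (0.798), G6pdx (0.781), Plin2 (0.773), Slc38a10 (0.765) and Pgd (0.763), among 12140 genes. Of the members, which are part of that mean, Sqle ranked 1, Cyp51 2, Lss 3, Insig1 6, Srebf2 54 and Hmgcs1 300. Idi1 and Fdps entered the mean but were not ranked, because only genes with a mean of at least 1 log2 CPM were. The listed enzyme Sc5d ranked 8 (0.769) without being part of the mean.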

How the data were processed

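Brown adipose RNA of 40 mice was sequenced as 50-base single-end reads, per the labels' protocols. The authors deposited raw counts per Ensembl gene as whole numbers, 1 column per mouse, matched to its mouse through the label's identifier; a companion FPKM table was not used. The submitters' processing notes name GSNAP and limma. The counting program, genome build and use of strand are not given in the sources used here, so reads of a gene and of an overlapping antisense gene cannot be told apart (Gm48342 overlaps 12.1% of the exonic bases of Hmgcs1, Akap9 3.76% of those of Cyp51).

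Symbols were found for 52403 of 52636 genes; coordinates came from GENCODE M21 on GRCm38. The test was edgeR 4.0.16 under R 4.3.3, on counts: filterByExpr, TMM scaling, 1 robust quasi-likelihood model with a mean per group over the 40 libraries, Benjamini-Hochberg adjustment over 17079 genes at 0.05. Standard errors are implied by the F statistic. Levels are log2 CPM with a prior count of 2. Alternatives were DESeq2 1.42.0, RLE size factors, no filter, only the groups compared, a muscle score covariate, limma 3.58.1 voom, length and GC offsets, a replicate block alone or with those offsets, and leaving out each mouse. Leaving out control mice 2 and 3 at 15 h together was chosen after seeing the data. Scripts were tested on simulated counts.

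The 8 genes and the lists were chosen with earlier results of these data known. The genes named were the 8 and Fasn, with up to 4 called genes per list and contrast by adjusted p, and the 5 unlisted genes most alike; for lists described by counts, fewer were named, and some genes the rule names are not reported here. Lbr was named because it was the single gene of its list and contrast called higher, after its value was seen. Same-numbered mice of different groups were not treated as pairs in the main test. Their deviations from group means correlated at -0.542 to 0.704 for single pairs. The mean per pair of groups was 0.0859 to 0.208 for the same number and -0.0498 to -0.0221 for other numbers. The reason for this small difference was not tested.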

Additional observations from a re-analysis of the deposited data

Results flagged for a closer look

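In 3 of the 64 sets of 5 mice (8 genes in 8 groups), 1 mouse stood far from the other 4 of its group, by Dixon's ratio above 0.71; chance alone would give about 3.2 such sets. Idi1 in control mice at 15 h was lowest in mouse 4, at -1.62 log2 CPM against -0.39 for the next mouse. Lss in Jag antibody mice at 15 h was highest in mouse 9, at 4.78 log2 CPM against 3.87 for the next. Srebf2 in Jag antibody mice at 5 d was highest in mouse 10, at 5.13 log2 CPM against 4.49 for the next.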

How the results depend on the processing

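Counts of members called moved under these settings. Without a filter on low counts they were 0 of 8 for the antibodies at 15 h, 0 at 7 d and 1 for hormone in Jag antibody mice. With only the groups compared they were 0 at 15 h, 0 at 7 d, 1 for hormone in Jag antibody mice, 0 and 1 in control mice from 15 h to 5 d and from 5 d to 7 d, and 1 in Jag antibody mice from 15 h to 5 d. With limma voom they were 0 at 15 h, 1 for hormone in Jag antibody mice and 4 in control mice from 5 d to 7 d, with Fdps added. Over that interval Insig1 lost its call in control mice without the filter. DESeq2 gave 1 for the antibodies at 5 d, and 1 and 2 in Jag antibody mice from 15 h to 5 d and from 5 d to 7 d; RLE factors gave 1 in Jag antibody mice from 15 h to 5 d. For the antibodies at 7 d DESeq2, the muscle covariate and length and GC offsets each gave 3, with Lss added. For hormone in control mice no filter, the muscle covariate and limma voom each gave 3, without Hmgcs1, and the replicate block with offsets 5, with Sqle added. The muscle covariate gave 2 for the antibodies at 5 d, 1 at 7 d with hormone, 1 in control mice from 5 d to 7 d, and 1 and 2 in Jag antibody mice from 15 h to 5 d and from 5 d to 7 d. At 5 d the muscle score did not overlap between the antibody groups. Length and GC offsets gave 1 for the antibodies at 5 d. Without control mice 2 and 3 at 15 h the counts were 0 for the antibodies at 15 h and 0 in control mice from 15 h to 5 d.

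The replicate block gave 1 for hormone in Jag antibody mice and 1 in Jag antibody mice from 15 h to 5 d, and with length and GC offsets 5 in control mice from 5 d to 7 d. Same-numbered mice correlated at 0.0859 to 0.208 on average, against -0.0498 to -0.0221 for mice of other numbers. In no pair of groups did more than 2 of 5 mice correlate best with their own number. Antibody contrasts share no numbers and have no paired fit.

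Leaving out each mouse in turn, the counts ranged from 0 to 1 for the antibodies at 15 h, 0 to 2 at 5 d, 0 to 3 at 7 d and 0 to 0 at 7 d with hormone. They ranged from 3 to 4 and 1 to 2 for hormone in control and Jag antibody mice, 1 to 2 and 1 to 3 in control mice from 15 h to 5 d and from 5 d to 7 d, and 0 to 1 and 0 to 0 in Jag antibody mice over the same intervals. The 3 interactions gave 0 of 8 in every setting run. The causes of these changes were not tested.

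Of 212 log2 fold changes of members called in any setting, recomputed under the processing alternatives, 169 kept their side of the threshold, 22 lost a call, 21 gained one and 0 reversed. Of the 79 member values called in no setting, 29 changed sign in at least 1, with reported sizes of up to 0.58. Without single mice the numbers were 203, 39, 8 and 0 of 250. Insig1 and Cyp51 with hormone in control mice, Insig1 with hormone in Jag antibody mice, Fdps with hormone in control mice and Cyp51 in control mice from 5 d to 7 d were called in all 9 alternatives. Removing the filter shifted the median of all genes by 0.105 in control mice from 15 h to 5 d. Idi1 and Fdps had medians of 11 and 8 counts per library, which limits their precision; whether reads shared with other genes were left out of these counts was not tested.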
